A study of Mus musculus with 16 samples.

Results

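Transcript levels of 32 genes of sterol and SREBP-driven lipid synthesis were examined in macrophages from mouse bronchoalveolar lavage fluid. The genes were taken by symbol from a list chosen with earlier results of these data known. All 32 were present among the 23159 symbols of the count table. They comprised 19 enzymes that carry acetyl-CoA to cholesterol, 4 SREBP regulators, 2 genes of sterol transport and receptor turnover, and 7 genes of fatty acid synthesis. The 16 libraries fell into 4 groups of 4: TLR3-KO injured, TLR3-KO control, WT injured and WT control. The injured groups were labelled as taken following pneumonia, which was brought about with Klebsiella pneumoniae at 500 CFU in 30 µl given into the hypopharynx. Controls carried the treatment label none, although the protocol also describes saline. The labels gave no strain background, age, time after inoculation or exact allele of TLR3-KO, a loss of the endosomal receptor for double-stranded RNA. The design text counts 15 samples in groups of 3 or 4, whereas 16 labelled libraries were given and all were used. The labels also did not say whether libraries of a group came from separate mice, so p-values here measure the spread between libraries.

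Cells make cholesterol from acetyl-CoA through mevalonate, isoprenoid diphosphates, squalene and lanosterol. SREBP2 switches on these enzymes, and SREBP1 acts more on fatty acid synthesis. Both are held in the endoplasmic reticulum by SCAP and INSIG when sterols are plentiful, and are cut free in the Golgi when sterols run short. In macrophages the pathway is known to be linked to inflammatory signalling, and alveolar macrophages also take up cholesterol and fatty acids from surfactant.

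Libraries held 29667102 to 59640251 counts, and all 32 members were among the 12455 genes that passed the filter on low counts. Alveolar macrophage markers summed to 25710 to 28590 library-scaled counts (CPM) in TLR3-KO injured, 21200 to 27960 in TLR3-KO control, 21960 to 28830 in WT injured and 21520 to 27210 in WT control libraries, so the labelled cell type was seen in all. Most of each sum was Chi3l3, a chitinase-like protein gene at up to 21900 CPM. The macrophage marker Cd68 fell in the averaged comparison (log2 fold change -0.28, SE 0.07, adjusted p = 0.0418), as 0.955% of all genes did. In TLR3-KO, 4 of 12 markers were lower and 2 higher in injured than in control libraries without overlap. Across all genes 3.05% were lower in this way, and the share that was higher is not given here. Tlr3 itself lay between 0.274 and 0.717 CPM in TLR3-KO libraries, against 2.18 to 4.53 CPM in WT libraries. The series title speaks of male mice, yet Xist, the RNA of the inactive X chromosome, reached 42.3, 31.6 and 20.3 CPM in TLR3-KO controls 1, 2 and 3, against at most 0.23 CPM elsewhere. Y-linked genes summed to 0.758, 1.16 and 23.2 CPM in the same controls, against 163.3 to 235.4 CPM elsewhere. TLR3-KO control 3 therefore held both Xist and Y-linked RNA, and the labels do not say why. Controls 1 and 2 of both genotypes also differed from controls 3 and 4 in several members, and the labels do not say what the numbers mark. Counts of members called in comparisons with TLR3-KO controls are also given with control 4, which lacked Xist, as the only one.

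Most sterol enzymes were lower following pneumonia when the response was averaged over both genotypes. Of the 32 members 17 fell and 0 rose, by edgeR's quasi-likelihood test with Benjamini-Hochberg adjustment over all genes tested at a threshold of 0.05. Across all genes, 0.955% fell and 1.31% rose in that comparison, but the members were chosen with earlier results of these data known. The members that fell were 15 of the 19 sterol enzymes, the SREBP retention protein gene Insig1 and the sterol carrier gene Stard4. None of the 7 fatty acid genes was called, none had an unadjusted p under 0.05 (16.4% of all genes had), and DESeq2 and limma voom also called 0 of 7. The median log2 fold change was -0.51 over the sterol enzymes and -0.18 over the fatty acid genes, against -0.0013 over all genes. With TLR3-KO control 4 as the only TLR3-KO control, 7 members were called, while 0.379% of all genes were: Acat2, Pmvk, Idi1, Fdps, Fdft1, Sc5d and Stard4. Without WT injured 1, 15 were called. In bulk RNA, fewer cells of a type and less RNA per cell cannot be told apart.

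**Figure D1:**
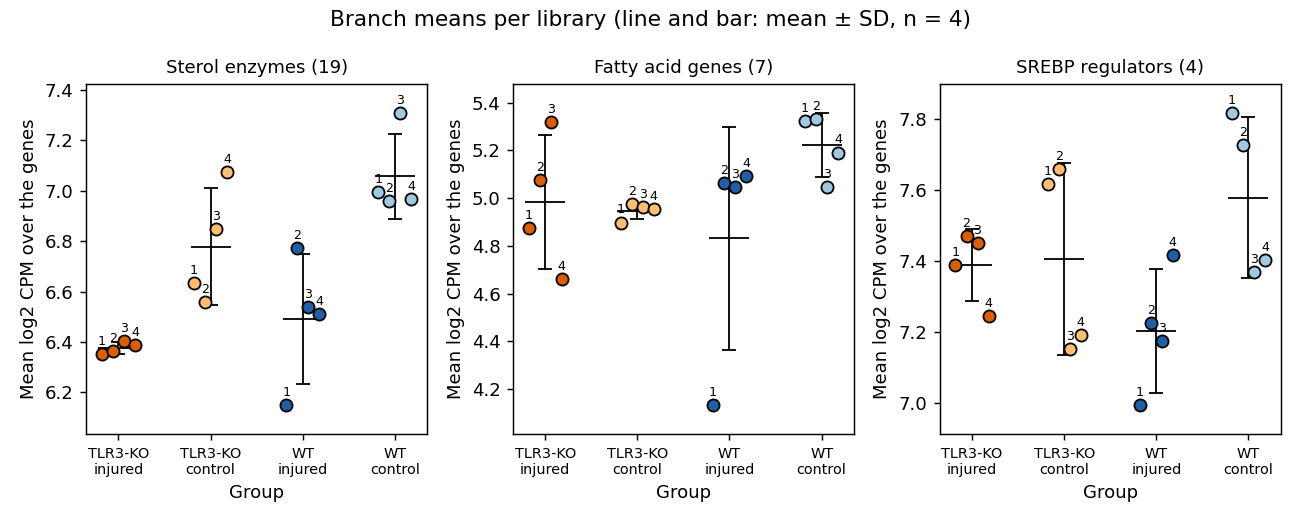
Mean log2 CPM per library over the 19 sterol enzymes, the 7 fatty acid genes and the 4 SREBP regulators (y axis) in the 4 groups (x axis); points are libraries with their replicate number, lines and bars are mean ± SD (n = 4). Injured libraries lie below controls of their genotype for the sterol enzymes, while the other panels overlap in both genotypes.

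Averaged over the 19 sterol enzymes, log2 CPM was 6.35, 6.36, 6.40 and 6.39 in TLR3-KO injured libraries 1 to 4, against 6.63, 6.56, 6.85 and 7.07 in TLR3-KO controls 1 to 4. The WT injured libraries had 6.15, 6.77, 6.54 and 6.51, against 6.99, 6.96, 7.31 and 6.97 in WT controls. Every injured library was therefore below every control of its genotype. The difference was -0.40 in TLR3-KO and -0.56 in WT. Between TLR3-KO injured libraries the SD was only 0.02, against 0.23 in their controls. With controls 1 and 2 only, the TLR3-KO difference was -0.22, with controls 3 and 4 only it was -0.58, and against TLR3-KO control 4 alone it was -0.70. Fatty acid genes averaged 4.88, 5.07, 5.32 and 4.66 in TLR3-KO injured libraries, against 4.90, 4.98, 4.96 and 4.95 in TLR3-KO controls. For the same genes WT injured libraries had 4.13, 5.06, 5.05 and 5.09, against 5.32, 5.33, 5.04 and 5.19 in WT controls. These groups overlapped in both genotypes, with differences of 0.04 in TLR3-KO and -0.39 in WT. WT injured 1 decided much of the WT value, which was -0.16 without it.

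Sums of markers of other cells were separate between injured and control libraries for neutrophils in TLR3-KO and erythroid cells in WT, and overlapped otherwise. Neutrophil markers summed to 116.7 to 202.7 CPM in TLR3-KO injured libraries, against 63.8 to 98.5 CPM in TLR3-KO controls. In WT they summed to 82.7 to 290.2 CPM in injured libraries, against 47.5 to 84.7 CPM in controls. The granule gene Elane was at 0 in all 16 libraries. Erythroid markers summed to 73.8 to 199.5 CPM in TLR3-KO injured libraries, against 41.4 to 494.6 CPM in TLR3-KO controls, and to 331.1 to 710.0 CPM in WT injured libraries, against 11.4 to 151.1 CPM in WT controls. Lung epithelium markers summed to 200.4 to 289.2 CPM in TLR3-KO injured libraries, against 166.0 to 215.2 CPM in TLR3-KO controls, and to 139.6 to 181.8 CPM in WT injured libraries, against 115.4 to 210.1 CPM in WT controls. In that list Cdh1, Epcam and Abca3 reached 127, 93 and 81.9 CPM. Each other gene of the list stayed at or below the 13.1 CPM reached by Scgb1a1. Sums of T cell, B cell, and fibroblast and endothelium markers stayed at or below 40.5 CPM in every library. The part of these cells in the lower sterol enzyme levels was not tested.

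Promoter sequence was read for the members because so many enzymes of one pathway fell together. Windows of 300 bases, 250 before to 50 after the annotated start, were in the RefSeq table (GRCm38.p6) for 26 of the 32 members. Fdps, Fdft1, Sqle, Stard4, Scd2 and Fads1 had no window and were not searched. The NF-Y box CCAAT, read on both strands, was in 15 of 16 sterol enzyme genes with a window (93.8%), against 41.1% of all genes with a window and 43.3% of the genes tested. The 4 sterol enzyme genes that were not called, Mvk, Ggps1, Ebp and Tm7sf2, all hold it, and Acat2, which fell, has none. It was in 2 of 5 fatty acid genes with a window. The sterol regulatory element, searched as TCACNCCAC on both strands, was found in Hmgcs1 alone of the 26 members, at position -137 from the start, and 1.44% of all genes held it. The Sp1 box GGGCGG was in 80.8% of the members with a window, against 38.2% of all genes and 67.8% of genes tested. The E-box CANNTG was in 69.2% of these members, against 75.0% of all genes and 67.9% of genes tested. The searched motifs may overlap each other, a match shows letters and not binding, and no match says only that these letters are not in the window. Windows of 3 sterol enzyme genes that fell are printed, with the fatty acid gene Fasn for contrast, with the sterol regulatory element and the NF-Y boxes (CCAAT, or ATTGG on the other strand) in capitals. They lie at chr13:119690101-119690400, plus strand for Hmgcs1, chr5:4104648-4104947, minus strand for Cyp51, chr9:42264251-42264550, minus strand for Sc5d and chr11:120824498-120824797, minus strand for Fasn.
Hmgcs1: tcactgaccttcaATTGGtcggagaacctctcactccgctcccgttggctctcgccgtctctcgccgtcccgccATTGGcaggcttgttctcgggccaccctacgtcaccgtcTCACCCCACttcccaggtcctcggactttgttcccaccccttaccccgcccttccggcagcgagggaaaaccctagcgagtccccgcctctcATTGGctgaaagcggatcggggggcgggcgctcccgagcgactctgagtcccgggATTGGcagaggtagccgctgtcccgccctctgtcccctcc
Cyp51: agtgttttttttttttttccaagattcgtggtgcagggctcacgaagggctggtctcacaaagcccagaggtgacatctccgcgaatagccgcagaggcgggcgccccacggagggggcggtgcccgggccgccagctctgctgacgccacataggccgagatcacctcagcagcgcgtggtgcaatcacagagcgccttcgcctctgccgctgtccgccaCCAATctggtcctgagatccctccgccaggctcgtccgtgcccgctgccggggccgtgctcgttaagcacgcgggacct
Sc5d: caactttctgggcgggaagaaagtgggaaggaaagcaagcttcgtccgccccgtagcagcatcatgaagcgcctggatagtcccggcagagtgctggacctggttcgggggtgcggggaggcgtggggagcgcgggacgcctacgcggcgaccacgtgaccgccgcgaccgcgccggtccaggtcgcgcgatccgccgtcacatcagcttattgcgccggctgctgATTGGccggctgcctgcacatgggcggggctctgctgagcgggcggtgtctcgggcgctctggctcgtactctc
Fasn: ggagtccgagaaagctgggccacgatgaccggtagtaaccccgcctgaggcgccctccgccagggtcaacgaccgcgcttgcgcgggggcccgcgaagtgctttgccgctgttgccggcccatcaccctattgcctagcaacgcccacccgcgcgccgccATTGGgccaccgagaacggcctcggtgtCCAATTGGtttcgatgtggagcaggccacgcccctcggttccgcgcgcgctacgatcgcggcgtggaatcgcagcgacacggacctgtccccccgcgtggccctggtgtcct
The Hmgcs1 window holds 4 NF-Y boxes and the only sterol regulatory element match among the 26 members with a window. Cyp51 and Sc5d have 1 NF-Y box each, at positions -29 and -24, and Fasn has 3, of which the last pair overlap.

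In the mevalonate arm, which makes isoprenoid diphosphates from acetyl-CoA, 6 of 8 enzymes fell in the averaged comparison. Hmgcs1 had 424, 484, 507 and 466 CPM in TLR3-KO injured libraries, against 414, 520.1, 479.7 and 616 CPM in TLR3-KO controls. Hmgcs1 in WT had 330.2, 559, 515 and 482 CPM in injured libraries, against 746, 703, 784 and 716 CPM in controls. Hmgcs1 makes the precursor of mevalonate, and its WT groups did not overlap while its TLR3-KO groups did, so that the averaged log2 fold change of -0.46 (SE 0.10, adjusted p = 0.0224) joins -0.17 in TLR3-KO and -0.76 in WT. Pmvk had 56.95, 53.1, 52.5 and 61.4 CPM in TLR3-KO injured libraries, against 79.9, 66.8, 95.4 and 124 CPM in TLR3-KO controls. Pmvk in WT had 59.6, 74.6, 59.1 and 55 CPM in injured libraries, against 66.8, 66.02, 109 and 83.2 CPM in controls. For Pmvk, the phosphomevalonate kinase, the TLR3-KO injured libraries were all below the controls, the WT groups overlapped, and the averaged log2 fold change was -0.63 (SE 0.12, adjusted p = 0.0136). Mvd had 171, 172, 168 and 178 CPM in TLR3-KO injured libraries, against 258, 225, 200.0 and 253 CPM in TLR3-KO controls. Mvd in WT had 165, 197, 179 and 188 CPM in injured libraries, against 215, 215, 210.2 and 195 CPM in controls. Mvd, which decarboxylates mevalonate diphosphate, showed the same arrangement at a smaller size, with an averaged log2 fold change of -0.41 (SE 0.08, adjusted p = 0.0136). Mvk, the mevalonate kinase before them, was too variable to be called at -0.55 (SE 0.25, adjusted p = 0.280): its TLR3-KO controls ran from 7.68 to 27.6 CPM and its WT controls from 8.72 to 25.4 CPM, with controls 3 and 4 high in both.

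Acat2 had 45.8, 46.9, 49.9 and 59.03 CPM in TLR3-KO injured libraries, against 57.2, 56.5, 97.2 and 129 CPM in TLR3-KO controls. Acat2 in WT had 40.6, 85.7, 69.8 and 60.7 CPM in injured libraries, against 76.04, 70.3, 142 and 106 CPM in controls. Acat2, which joins acetyl-CoA units at the start of the pathway, overlapped in both genotypes, and its controls 3 and 4 were higher than controls 1 and 2 in each; the averaged log2 fold change was -0.76 (SE 0.18, adjusted p = 0.0418). Idi1 had 231, 244, 265 and 289 CPM in TLR3-KO injured libraries, against 262, 301, 393 and 553 CPM in TLR3-KO controls. Idi1 in WT had 173, 380.4, 352 and 256 CPM in injured libraries, against 417, 405, 597 and 476 CPM in controls. For Idi1, the isopentenyl diphosphate isomerase, the WT groups were separate and TLR3-KO injured 3 and 4 lay above TLR3-KO control 1, and the averaged log2 fold change was -0.71 (SE 0.16, adjusted p = 0.0279). Fdps had 175, 192, 189.9 and 197 CPM in TLR3-KO injured libraries, against 235, 223, 380.5 and 471 CPM in TLR3-KO controls. Fdps in WT had 154, 287, 236 and 208 CPM in injured libraries, against 262, 262, 401 and 355 CPM in controls. Fdps, which makes farnesyl diphosphate, was separate in TLR3-KO and overlapped in WT, with an averaged log2 fold change of -0.74 (SE 0.15, adjusted p = 0.0177). Of the Fdps exon bases 26.7% are shared with the predicted gene Gm43738 on the same strand, so its reads are uncertain. Ggps1, which extends farnesyl diphosphate for protein prenylation, was not called, at -0.09 (SE 0.09, adjusted p = 0.646). Acat3, a near copy of Acat2, had at most 0.253 CPM in any library.

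From squalene to cholesterol, 9 of 11 enzymes fell. Fdft1 had 123, 133, 141 and 137 CPM in TLR3-KO injured libraries, against 171, 172, 194 and 239 CPM in TLR3-KO controls. Fdft1 in WT had 95.6, 175, 148 and 142 CPM in injured libraries, against 215, 215, 257 and 214 CPM in controls. Fdft1, squalene synthase (chr14:63145150-63179578, minus strand, mm10), commits farnesyl diphosphate to sterols, and its injured libraries lay below the controls in both genotypes. Injured libraries had 61.6% of the control level (log2 fold change -0.70 (SE 0.10, adjusted p = 0.00699)), the lowest p among the members. The counting strand is not given, 18.3% of its exon bases overlap Ctsb on the opposite strand, and Ctsb, at 3250 to 4810 CPM, had an averaged log2 fold change of -0.28 (adjusted p = 0.0467). Sc4mol had 280.3, 275, 294 and 304 CPM in TLR3-KO injured libraries, against 305, 333, 374 and 406 CPM in TLR3-KO controls. Sc4mol in WT had 241, 361, 313 and 318 CPM in injured libraries, against 460.5, 446, 526 and 406 CPM in controls. For Sc4mol, the methylsterol oxidase now named Msmo1, both genotypes were also separate, although narrowly in TLR3-KO, and the averaged log2 fold change was -0.53 (SE 0.09, adjusted p = 0.00941). Sc5d had 132, 134, 133 and 146 CPM in TLR3-KO injured libraries, against 155, 151, 184 and 257 CPM in TLR3-KO controls. Sc5d in WT had 125, 195, 176 and 147 CPM in injured libraries, against 233, 222, 275 and 236 CPM in controls. Sc5d, a sterol desaturase, was separate in both genotypes as well, with an averaged log2 fold change of -0.61 (SE 0.10, adjusted p = 0.00957). Together with Stard4, these were the 4 members whose groups did not overlap in either genotype, against 0.128% of all genes.

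Sqle had 263, 283, 283 and 268 CPM in TLR3-KO injured libraries, against 293, 310.2, 272 and 360.4 CPM in TLR3-KO controls. Sqle in WT had 165, 312, 270.2 and 265 CPM in injured libraries, against 415, 403, 412 and 381 CPM in controls. Sqle, squalene epoxidase, was separate in WT and overlapped in TLR3-KO; the averaged log2 fold change was -0.51 (SE 0.10, adjusted p = 0.0203). Cyp51 had 405, 436, 438 and 436 CPM in TLR3-KO injured libraries, against 443, 479, 435 and 555 CPM in TLR3-KO controls. Cyp51 in WT had 309, 486, 440.3 and 414 CPM in injured libraries, against 644, 596, 659.7 and 578 CPM in controls. Cyp51, the lanosterol demethylase, behaved alike in its ranges, at -0.46 (SE 0.09, adjusted p = 0.0136), with 3.76% of its exon bases shared with Akap9 on the opposite strand. Hsd17b7 had 70.9, 77.1, 85.01 and 69.1 CPM in TLR3-KO injured libraries, against 71.3, 82.4, 70.4 and 88.6 CPM in TLR3-KO controls. Hsd17b7 in WT had 50.2, 85.4, 85.4 and 68.99 CPM in injured libraries, against 127, 114, 124 and 109.5 CPM in controls. Hsd17b7, a ketoreductase that acts during removal of the methyl groups, was lower in every WT injured library than in any WT control, and averaged -0.47 (SE 0.10, adjusted p = 0.0250). Lss had 52.6, 63.8, 66.6 and 55.4 CPM in TLR3-KO injured libraries, against 62.1, 66.8, 79.1 and 112 CPM in TLR3-KO controls. Lss in WT had 36.1, 92.1, 76.2 and 64.9 CPM in injured libraries, against 97.4, 90.1, 127 and 107 CPM in controls. For Lss, lanosterol synthase, both genotypes overlapped and the averaged log2 fold change was -0.62 (SE 0.15, adjusted p = 0.0474).

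Dhcr7 had 52.1, 59.8, 57.6 and 53.4 CPM in TLR3-KO injured libraries, against 55.03, 58.5, 59.2 and 76.1 CPM in TLR3-KO controls. Dhcr7 in WT had 71.1, 98.5, 82.6 and 89.8 CPM in injured libraries, against 99.6, 93.3, 137 and 115 CPM in controls. Dhcr7, a reductase at the end of the pathway, overlapped in both genotypes, with the smallest averaged change among the enzymes that fell, at -0.35 (SE 0.09, adjusted p = 0.0418). Nsdhl had 34.7, 35.96, 38.02 and 33.8 CPM in TLR3-KO injured libraries, against 39.1, 36.7, 43.96 and 52.6 CPM in TLR3-KO controls. Nsdhl in WT had 23.6, 36.99, 32.4 and 34.8 CPM in injured libraries, against 39.4, 40.7, 55.2 and 41.9 CPM in controls. Nsdhl, a sterol dehydrogenase encoded on the X chromosome, was separate in WT and overlapped in TLR3-KO, with an averaged log2 fold change of -0.46 (SE 0.10, adjusted p = 0.0250). Ebp had 66.2, 63.7, 60.7 and 60 CPM in TLR3-KO injured libraries, against 69.5, 59.3, 66.7 and 65.9 CPM in TLR3-KO controls. Ebp in WT had 60.3, 46.8, 44.5 and 58.4 CPM in injured libraries, against 52.3, 57.3, 60.9 and 48.1 CPM in controls. Ebp, a sterol isomerase also encoded on the X chromosome, overlapped everywhere and was not called, at -0.15 (SE 0.09, adjusted p = 0.439). TLR3-KO control 4, the one without Xist, had the highest Nsdhl of its group and lay within the range of the other TLR3-KO controls for Ebp. Tm7sf2, a sterol reductase, was scarce, at 4.93 to 5.56 CPM in TLR3-KO injured libraries, 4.02 to 10.5 CPM in TLR3-KO controls, 5.76 to 8.20 CPM in WT injured libraries and 3.59 to 7.88 CPM in WT controls, and was not called, at -0.18 (SE 0.21, adjusted p = 0.719).

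**Figure D2:**
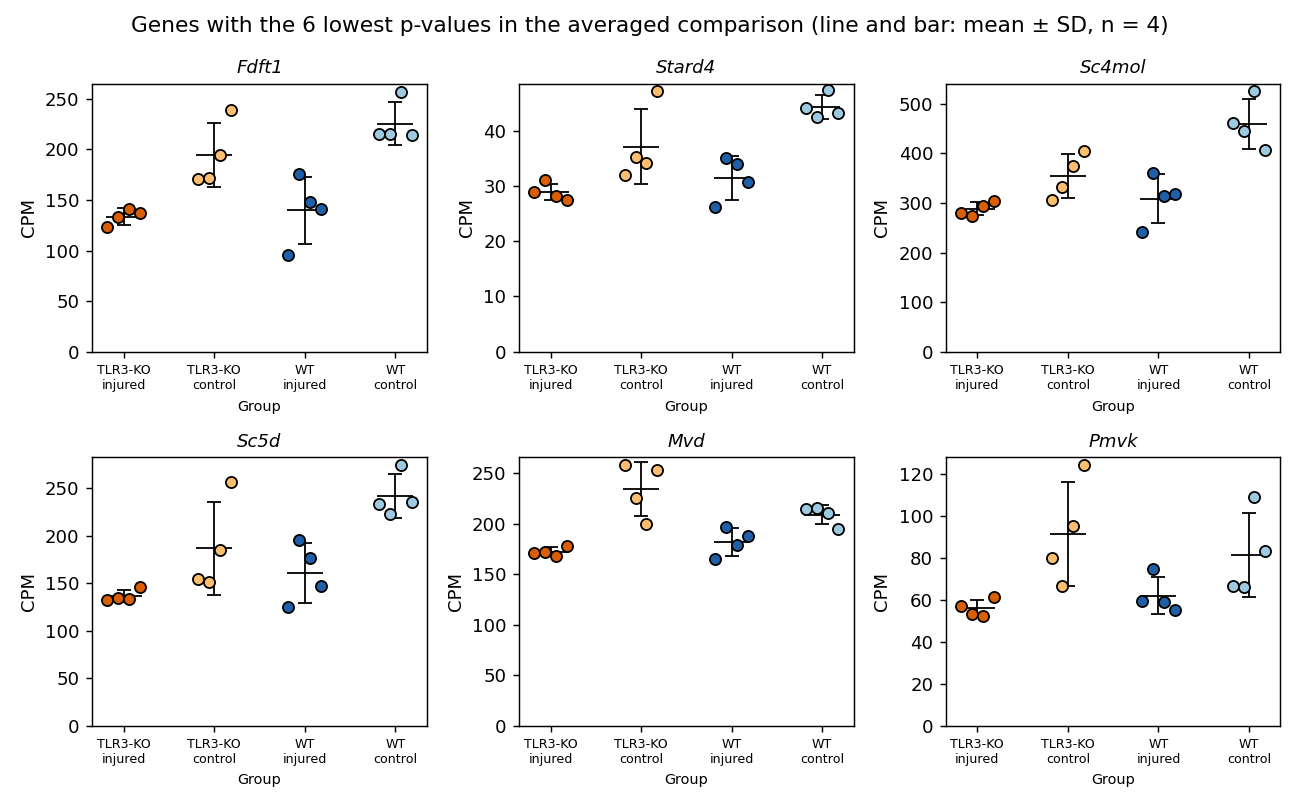
CPM per library (y axis, from 0) of the 6 members with the lowest p-values in the averaged comparison, Fdft1, Stard4, Sc4mol, Sc5d, Mvd and Pmvk, in the 4 groups (x axis); lines and bars are mean ± SD (n = 4). TLR3-KO injured libraries form the tightest group of each panel, below all TLR3-KO controls.

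The calls differed in how far they rested on single libraries. Leaving out each of the 16 libraries in turn kept 10 of the 17 called every time: Pmvk, Mvd, Fdps, Fdft1, Sqle, Cyp51, Sc4mol, Sc5d, Insig1 and Stard4. Only 10 members were called without TLR3-KO injured 1, and 10 without TLR3-KO injured 4. Hmgcs1 lost its call without either of these (adjusted p at most 0.0545), Hsd17b7 without either or without WT control 1 (at most 0.0595), and Nsdhl without either, TLR3-KO control 4 or WT injured 3 (at most 0.0569). Idi1 lost it without any one of TLR3-KO injured 1 to 4, TLR3-KO control 3 or 4, WT injured 4 or WT control 3 (at most 0.0641). Acat2 kept its call in 4 of the 16 fits, those without TLR3-KO control 1 or 2, WT injured 2 or WT control 2, and otherwise reached at most 0.0857. Lss kept it in 3, those without TLR3-KO control 2, WT injured 1 or WT injured 2 (otherwise at most 0.0960), and Dhcr7 in 3, those without TLR3-KO control 2, WT injured 2 or WT control 2 (otherwise at most 0.0889). All log2 fold changes stayed negative in these edgeR fits.

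Among the SREBP regulators, 1 of 4 fell. Insig1 had 232, 218, 226 and 247 CPM in TLR3-KO injured libraries, against 278, 318, 246 and 307 CPM in TLR3-KO controls. Insig1 in WT had 252, 292, 273 and 240.0 CPM in injured libraries, against 362, 324, 326 and 303 CPM in controls. Insig1, which holds the SREBP complex in the endoplasmic reticulum and is itself switched on by SREBP, was separate in WT and had TLR3-KO injured 4 just above TLR3-KO control 3, with an averaged log2 fold change of -0.41 (SE 0.08, adjusted p = 0.0154). Srebf2 had 219, 257, 244 and 197 CPM in TLR3-KO injured libraries, against 236, 246, 197 and 220.0 CPM in TLR3-KO controls. Srebf2 in WT had 150.1, 218, 214 and 222 CPM in injured libraries, against 313, 299.6, 193 and 289 CPM in controls. Srebf2, which encodes SREBP2, was not called, at -0.30 (SE 0.12, adjusted p = 0.212), and WT injured 1 was far below the other WT injured libraries. Srebf1 had 177, 198, 204 and 158 CPM in TLR3-KO injured libraries, against 204, 208, 129 and 132 CPM in TLR3-KO controls. Srebf1 in WT had 114, 130.4, 133 and 184 CPM in injured libraries, against 207, 206, 148 and 147 CPM in controls. Srebf1, which encodes SREBP1, was not called either, at -0.20 (SE 0.15, adjusted p = 0.559), and its controls 1 and 2 were above controls 3 and 4 in both genotypes. Scap had 94.7, 105, 101 and 83.7 CPM in TLR3-KO injured libraries, against 82.2, 95.4, 67.1 and 65.96 CPM in TLR3-KO controls. Scap in WT had 63.8, 65.3, 67.3 and 88.3 CPM in injured libraries, against 71.3, 66.8, 67.2 and 70.3 CPM in controls. Scap, the escort that carries SREBP to the Golgi, had an averaged log2 fold change of 0.08 (SE 0.10, adjusted p = 0.754), with a 95% interval of -0.12 to 0.29.

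The carrier gene and the receptor ligase gene differed. Stard4 had 28.9, 30.99, 28.2 and 27.5 CPM in TLR3-KO injured libraries, against 31.9, 35.1, 34.2 and 47.1 CPM in TLR3-KO controls. Stard4 in WT had 26.1, 35, 34.02 and 30.7 CPM in injured libraries, against 44.1, 42.4, 47.4 and 43.2 CPM in controls. Stard4, which moves sterol between membranes, was at 70.1% of control in injured libraries, with no overlap in either genotype (averaged log2 fold change -0.51 (SE 0.08, adjusted p = 0.00719)). Mylip had 37.1, 31.9, 36.4 and 28.4 CPM in TLR3-KO injured libraries, against 29.5, 28.9, 20.5 and 18.6 CPM in TLR3-KO controls. Mylip in WT had 19.8, 23.2, 22.6 and 31.5 CPM in injured libraries, against 27.1, 31.6, 19 and 23.5 CPM in controls. Mylip, a ubiquitin ligase that marks lipoprotein receptors for breakdown and is driven by LXR rather than SREBP, was not called, at 0.10 (SE 0.15, adjusted p = 0.808) with a 95% interval of -0.20 to 0.40. Its TLR3-KO injured libraries lay above TLR3-KO controls 3 and 4 and overlapped controls 1 and 2.

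Of the 7 fatty acid genes, 5 had a negative and 2 a positive averaged log2 fold change, none of them called. Fasn, fatty acid synthase, had 139.6, 192, 240.3 and 124 CPM in TLR3-KO injured libraries, against 142, 168, 81.95 and 143 CPM in TLR3-KO controls. Fasn in WT had 70.6, 161, 166 and 164 CPM in injured libraries, against 255, 235, 139.9 and 184 CPM in controls. WT injured 1 was below the lowest of all other libraries, and the averaged log2 fold change was -0.18 (SE 0.21, adjusted p = 0.741) with a 95% interval of -0.59 to 0.24. Acly had 477, 544, 566 and 418 CPM in TLR3-KO injured libraries, against 382, 488, 353 and 373 CPM in TLR3-KO controls. Acly in WT had 284, 436, 449.6 and 520.2 CPM in injured libraries, against 592, 544, 474 and 476 CPM in controls. Acly, which makes cytosolic acetyl-CoA from citrate and so feeds both branches, had -0.08 (SE 0.13, adjusted p = 0.806) with an interval of -0.33 to 0.16. Acaca, acetyl-CoA carboxylase, had 0.10 (SE 0.16) with an interval of -0.22 to 0.41, the desaturase Scd2 -0.21 (SE 0.17, adjusted p = 0.587) and the elongase Elovl6 0.10 (SE 0.14, adjusted p = 0.765). Fads1, a desaturase of polyunsaturated fatty acids, had the lowest p of the branch at -0.36 (SE 0.18, adjusted p = 0.333), and TLR3-KO control 3 at 45.9 CPM was the highest of all its libraries. Fads2, the partner desaturase, was scarce, at 0.181 to 2.11 CPM over all libraries.

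**Figure D3:**
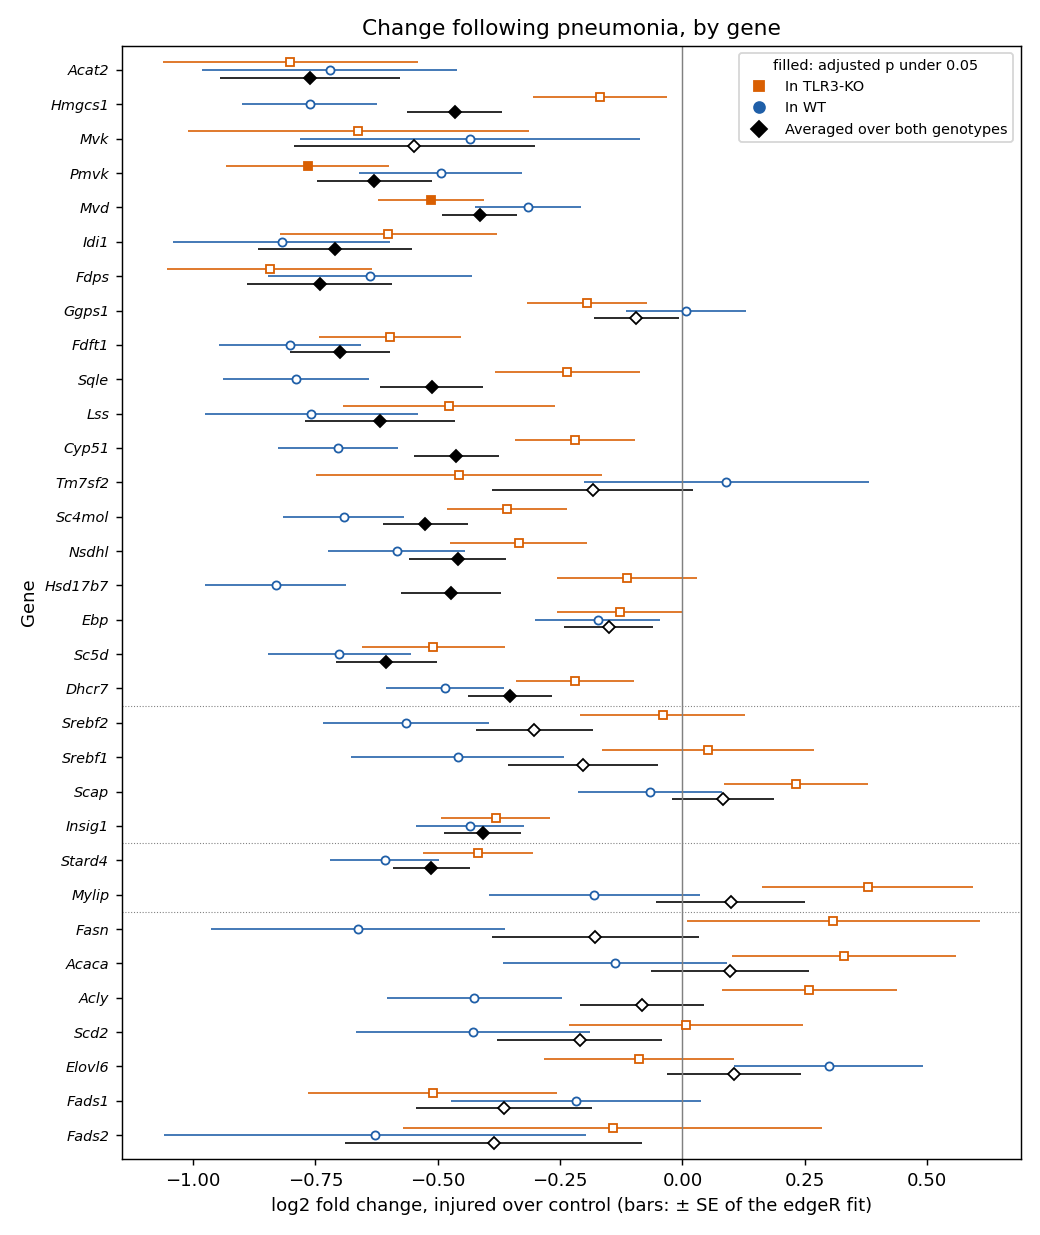
log2 fold change of injured over control (x axis) for the 32 members (y axis, sterol enzymes, regulators, transport genes and fatty acid genes from top to bottom), in TLR3-KO, in WT and averaged; bars are the SE of the edgeR fit and filled symbols have an adjusted p under 0.05. Filled symbols are confined to sterol enzymes, Insig1 and Stard4, 17 of them averaged and 2 in TLR3-KO.

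In TLR3-KO macrophages alone, pneumonia came with lower Pmvk and Mvd. Pmvk fell to 58.8% and Mvd to 70.1% of the control level. Their log2 fold changes were -0.77 (SE 0.17, adjusted p = 0.0425) and -0.51 (SE 0.11, adjusted p = 0.0415). They were the 2 members called of 32, while 0.514% of all genes fell. Groups did not overlap in 7 members, all lower: Pmvk, Mvd, Fdps, Fdft1, Sc4mol, Sc5d and Stard4, against 3.05% of all genes. Fdft1 (log2 fold change -0.60, SE 0.14, adjusted p = 0.0517) and Fdps (log2 fold change -0.84, SE 0.21, adjusted p = 0.0537) were just above the threshold. Each call was kept in 6 of 16 fits that left out 1 library: the count was 0 without any one of TLR3-KO injured 1 to 4, TLR3-KO control 1, 3 or 4, WT injured 3 or WT control 2, 1 without WT injured 2 or WT control 1, 4 without WT control 3, 5 without WT injured 1 and 7 without TLR3-KO control 2. It was 1 with controls 1 and 2 only, and 0 against TLR3-KO control 4 alone. With controls 3 and 4 only it was 16, of which 13 were lower, in a fit that called 32.1% of all genes. For the other fits that share is not given here. Both calls were also lost in a fit of the TLR3-KO libraries alone (adjusted p of 0.0702 for Pmvk and 0.0769 for Mvd) and with no filter on low counts (0.0570 and 0.0600).

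In WT macrophages, 0 of 32 members were called by edgeR and 0% of all genes fell. Yet 29 had a negative log2 fold change (48.7% of all genes did), 20 had an unadjusted p under 0.05 with a negative sign (4.44% of all genes did), and DESeq2 called 13 (1.54% of all genes) while limma voom called 0. The median over the members was -0.53, against 0.01 over all genes. The lowest p-values belonged to Cyp51 at -0.70 (SE 0.12, adjusted p = 0.0569), Hsd17b7 at -0.83 (SE 0.14, adjusted p = 0.0569) and Sc4mol at -0.69 (SE 0.12, adjusted p = 0.0611). Groups did not overlap in 11 members, all lower, against 0.682% of all genes: Hmgcs1, Idi1, Fdft1, Sqle, Cyp51, Sc4mol, Nsdhl, Hsd17b7, Sc5d, Insig1 and Stard4. The count was 6 without WT injured 2 and 3 without WT control 4, and 15 with controls 1 and 2 only, of which 14 were lower, in a fit that called 12.9% of all genes. For the fits that left out 1 library the share of all genes called is not given here. WT injured 1 was the lowest of its group in 26 of 32 members. In TMM-scaled log2 CPM it was the lowest of all 16 libraries in 20 members. The count of members called without WT injured 1 stayed at 0.

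Whether the response differed between genotypes was tested as the difference of the 2 log2 fold changes, TLR3-KO minus WT. By edgeR 0 of 32 members were called, as were 0% of all genes, and DESeq2 and limma voom called 0 members too. At an unadjusted p under 0.05 there were 7 members, all positive (8.57% of all genes were): Hmgcs1, Sqle, Cyp51, Hsd17b7, Srebf2, Fasn and Acly. Hsd17b7 had the lowest p, with log2 fold changes of -0.11 in TLR3-KO and -0.83 in WT and a difference of 0.72 (SE 0.20, adjusted p = 0.237). For Fasn these were 0.31 and -0.66, with a difference of 0.97 (SE 0.42, adjusted p = 0.261) and a 95% interval of 0.14 to 1.80, and for Acly 0.26 and -0.43, with a difference of 0.69 (SE 0.25, adjusted p = 0.241). Negative differences, none of them called, belonged to 9 members, led by Tm7sf2 at -0.55 (SE 0.41, adjusted p = 0.452), Elovl6 at -0.39 (SE 0.27, adjusted p = 0.425) and Fads1 at -0.29 (SE 0.36, adjusted p = 0.651). The others were Pmvk, Mvk, Fdps, Ggps1, Mvd and Acat2, from -0.27 to -0.08. Each of these differences uses the TLR3-KO controls, 3 of which held Xist. With control 4 as the only TLR3-KO control, 0 members were called, 28 of 32 differences kept their sign, and the difference was 0.65 for Hsd17b7, 0.99 for Fasn, 0.90 for Acly, -1.04 for Tm7sf2, -0.61 for Pmvk and -0.64 for Fdps.

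**Figure D4:**
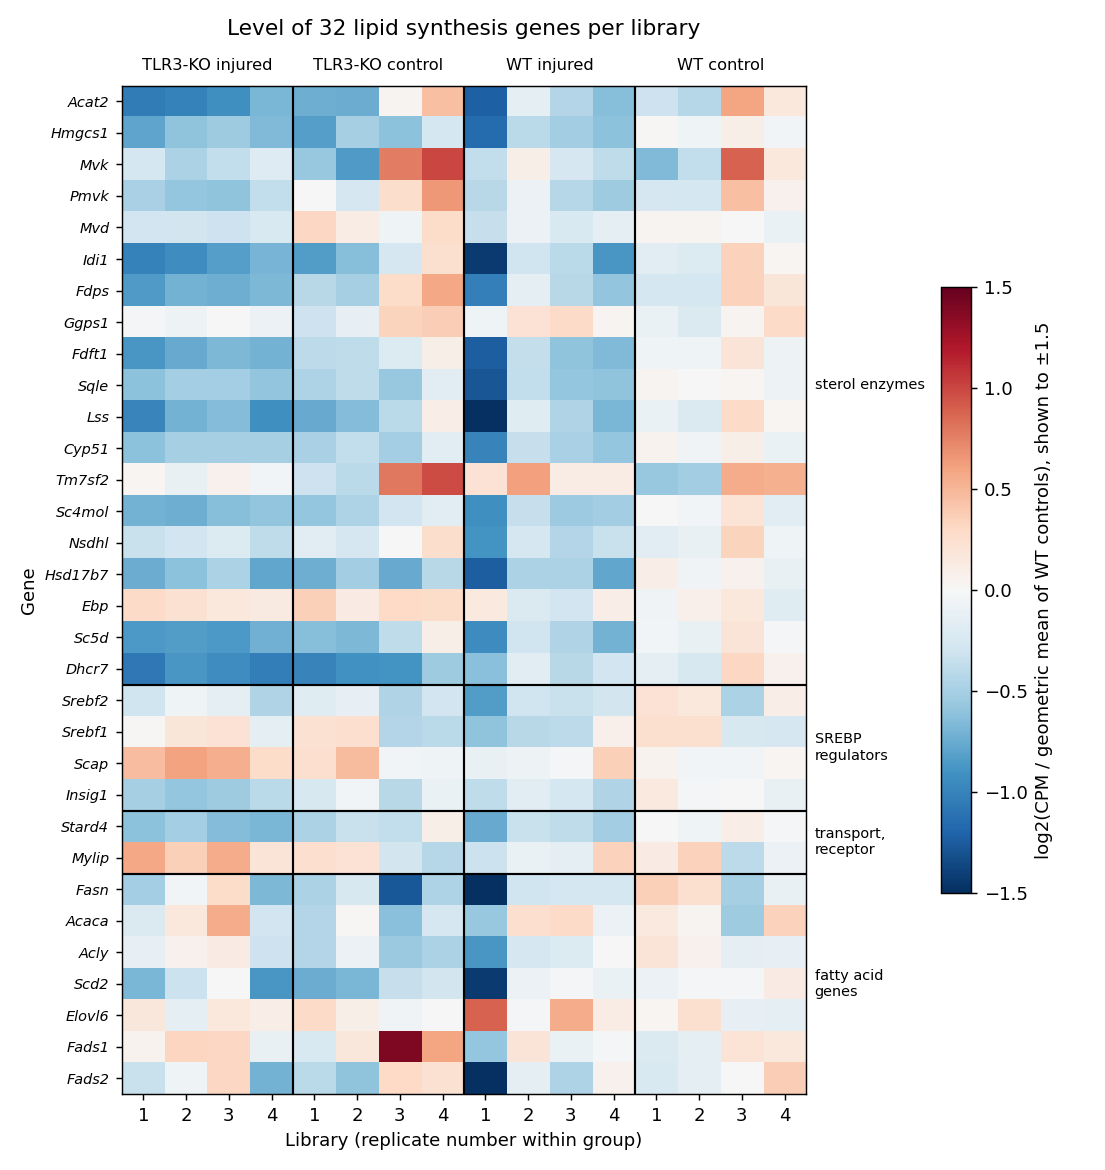
log2 of CPM over the geometric mean of WT controls (colour, shown to ±1.5) for the 32 members (y axis, by branch) in 16 libraries (x axis, replicate number within group). After TMM scaling, which the plotted CPM do not use, WT injured 1 has the lowest value in 20 of the 32 genes. Controls 3 and 4 differ from controls 1 and 2 in Acat2, Mvk, Idi1, Fdps and Tm7sf2.

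Without pneumonia, TLR3-KO macrophages had less Dhcr7 and Hsd17b7 RNA than WT macrophages. Dhcr7 (chr7:143823145-143848410, plus strand, mm10) averaged 62.2 ± 9.44 CPM in TLR3-KO controls and 111 ± 19.3 CPM in WT controls (SD, n = 4 each), with no overlap and a log2 fold change of -0.91 (SE 0.12, adjusted p = 0.00137). Hsd17b7 (chr1:169949535-169969241, minus strand, mm10) averaged 78.2 ± 8.83 CPM in TLR3-KO controls and 119 ± 8.29 CPM in WT controls, at -0.69 (SE 0.14, adjusted p = 0.0458). These were 2 of 32 members, both lower, while 0.409% of all genes were. Hmgcs1 was at the threshold itself, with 507 ± 84.6 CPM in TLR3-KO controls and 737 ± 35.9 CPM in WT controls (log2 fold change -0.62, SE 0.14, adjusted p = 0.05001). Groups did not overlap in 7 members, all lower, against 2.22% of all genes: Hmgcs1, Sqle, Cyp51, Sc4mol, Hsd17b7, Dhcr7 and Scd2. By contrast Pmvk (log2 fold change 0.09, SE 0.17, adjusted p = 0.773), Mvd (log2 fold change 0.09, SE 0.11, adjusted p = 0.676) and Fdps (log2 fold change -0.05, SE 0.21, adjusted p = 0.905) had log2 fold changes near 0.

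Same-numbered controls of the 2 genotypes deviated together (r of 0.478 to 0.602), and blocking on that number kept Dhcr7 called (adjusted p = 0.00607) and not Hsd17b7 (adjusted p = 0.0613), which left 1 call. The block also covered the injured libraries, whose same-numbered pairs between genotypes had r of -0.341 to 0.077. Dhcr7 was called in all 16 fits that left out 1 library, but a fit of the control libraries alone left 0 calls, with an adjusted p for Dhcr7 of 0.0635 at a log2 fold change of -0.92. Hsd17b7 was called in 5 and lost without any one of TLR3-KO injured 1 to 4, TLR3-KO control 1, 3 or 4, WT injured 2 or 4, or WT control 1 or 2, each of which left 1 call. Without WT injured 1 there were 7 calls, in a fit whose share of all genes called is not given here. With controls 1 and 2 only there was 1 call, with controls 3 and 4 only 1, and with TLR3-KO control 4 alone 0, at an adjusted p for Dhcr7 of 0.235 and a log2 fold change of -0.73. The part of sex in these differences was not tested beyond that.

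After pneumonia the same comparison left Dhcr7 alone. It averaged 55.7 ± 3.59 CPM in TLR3-KO injured libraries and 85.5 ± 11.6 CPM in WT injured libraries (SD, n = 4 each), at a log2 fold change of -0.65 (SE 0.12, adjusted p = 0.0278). It was the 1 member called of 32, lower, as 0.225% of all genes were, and none of these 8 libraries held Xist above 0.139 CPM. The call was lost, leaving 0, without any one of TLR3-KO injured 1 to 4 or WT injured 2 or 3. Markers of other cells differed here too. Of 13 lung epithelium markers 8 were higher and 1 lower in TLR3-KO injured libraries without overlap (median log2 fold change 1.44, against -0.01 over all genes). Across all genes 3.18% were lower without overlap. The shares of all genes that were higher without overlap, or called higher, are not given here. The surfactant protein genes Sftpa1 at 1.60 (SE 0.33, adjusted p = 0.0403), Sftpb at 2.79 (SE 0.41, adjusted p = 0.00543) and Sftpd at 2.22 (SE 0.44, adjusted p = 0.0350) were called. These 3 genes were scarce, at no more than 9.07, 3.07 and 4.85 CPM in any library. Of 7 tested erythroid markers 5 were lower without overlap (median -2.02), as were 3.18% of all genes. Of the 8 tested neutrophil markers 4 had a positive and 4 a negative log2 fold change (median -0.01). Among them Mmp8 was called higher at 1.07 (SE 0.21, adjusted p = 0.0350). The part of these cells in the Dhcr7 difference was not tested. Besides Dhcr7 the groups were separate for Tm7sf2 (log2 fold change -0.32, SE 0.29, adjusted p = 0.590), which makes 2 members lower, against 3.18% of all genes. Hsd17b7 averaged 75.5 ± 7.20 CPM in TLR3-KO injured libraries and 72.5 ± 16.8 CPM in WT injured libraries (log2 fold change 0.03 (SE 0.14, adjusted p = 0.931)). Scap was higher on average without being called, at 96.02 ± 9.25 CPM in TLR3-KO injured libraries and 71.2 ± 11.5 CPM in WT injured libraries (log2 fold change 0.40, SE 0.15, adjusted p = 0.219). Of the members only Sc4mol and Mvd lie on chromosome 8 with Tlr3, at 19.3 and 77.0 Mb from it.

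**Figure D5:**
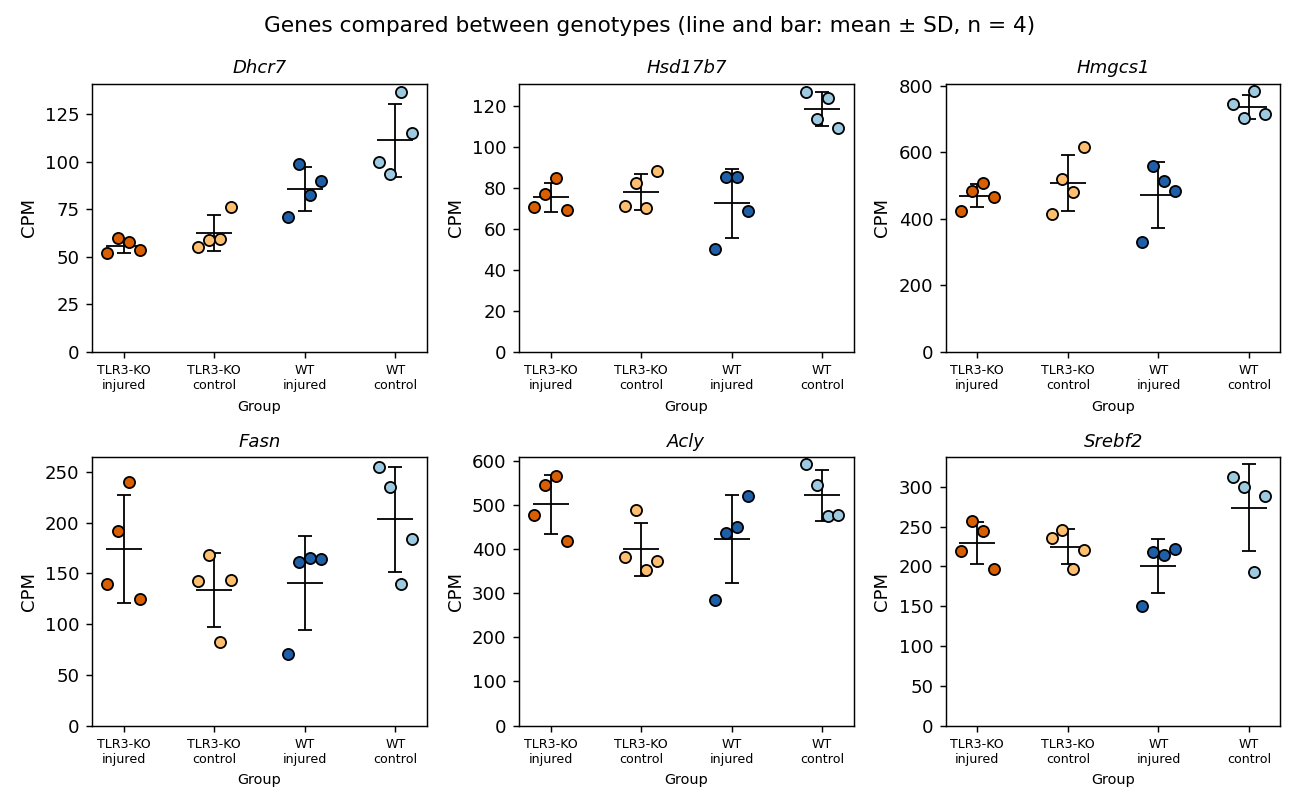
CPM per library (y axis, from 0) of Dhcr7, Hsd17b7, Hmgcs1, Fasn, Acly and Srebf2 in the 4 groups (x axis); lines and bars are mean ± SD (n = 4). Dhcr7 is lower in TLR3-KO than in WT libraries in both states, and Hsd17b7 and Hmgcs1 are high in WT controls only.

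Per kilobase of exon, the members differed widely in level. In WT controls Hmgcs1 led with 160.5 CPM per kb, followed by Cyp51 at 140.2, Idi1 at 135, Mvd at 112 and Insig1 at 106. Acly, at 98.8 CPM per kb, was the most abundant fatty acid gene. At the low end stood Acaca at 1.47, Tm7sf2 at 1.30, Elovl6 at 1.22 and Fads2 at 0.502 CPM per kb. In TLR3-KO injured libraries the level of Hmgcs1 was 102, of Cyp51 97.2, of Idi1 73.4 and of Mvd 92.5 CPM per kb.

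Neighbouring steps of the pathway were read from 6 lists of 89 genes. Averaged over both genotypes, 1 of 11 tested genes of LXR and its targets fell and 0 rose, while 0.955% of all genes fell and 1.31% rose. It was Apoe, a lipid carrier of macrophages, at -0.63 (SE 0.15, adjusted p = 0.0464). Apoe had 37.5, 44.3, 33.6 and 33.99 CPM in TLR3-KO injured libraries, against 99.6, 58.8, 114 and 61.8 CPM in TLR3-KO controls. Apoe in WT had 44.3, 31.2, 32.5 and 46.6 CPM in injured libraries, against 37.02, 29.7, 42.9 and 35.5 CPM in controls. The TLR3-KO controls were above every other library. The log2 fold change following pneumonia was -1.24 (SE 0.22, adjusted p = 0.0287) in TLR3-KO and -0.02 (SE 0.22, adjusted p = 0.984) in WT, with a difference of -1.22 (SE 0.31, adjusted p = 0.237), and TLR3-KO controls against WT controls gave 1.14 (SE 0.22, adjusted p = 0.0346), a comparison in which 0.249% of all genes were higher. With control 4 as the only TLR3-KO control, an alternative chosen after seeing the data, Apoe was not called: the log2 fold change was -0.68 (SE 0.25, adjusted p = 0.141) following pneumonia in TLR3-KO, -0.35 (SE 0.15, adjusted p = 0.236) averaged over both genotypes and 0.58 (SE 0.25, adjusted p = 0.276) between control genotypes. Nr1h2, which encodes LXR beta, was not called in the averaged comparison, at -0.21 (SE 0.06, adjusted p = 0.0773).

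In the other lists edgeR called 0 genes in the averaged comparison, in which 16.4% of all genes had an unadjusted p under 0.05. Among 8 tested genes of other sterol synthesis and SREBP2 targets, 4 had an unadjusted p under 0.05, all lower, led by Pcyt2, an enzyme of phosphatidylethanolamine synthesis (log2 fold change -0.45, SE 0.12, adjusted p = 0.0571), and Tmem97, a sterol-regulated membrane protein (log2 fold change -0.20, SE 0.07, adjusted p = 0.145). Of 14 genes of isoprenoid use 1 had such a p; the lowest were Pdss1, which builds the ubiquinone tail (log2 fold change 0.28, SE 0.12, adjusted p = 0.248), and Icmt, which methylates prenylated proteins (log2 fold change 0.17, SE 0.09, adjusted p = 0.361). Of 15 genes of SREBP processing and sterol-regulated turnover 1 had one, and the lowest were Erlin1 (log2 fold change 0.22, SE 0.07, adjusted p = 0.130) and Ufd1l (log2 fold change -0.11, SE 0.05, adjusted p = 0.335). Of 6 tested genes of oxysterols and esterification 3 had one, led by the lysosomal acid lipase gene Lipa (log2 fold change -0.39, SE 0.10, adjusted p = 0.0628) and the sterol esterifying gene Soat2 (log2 fold change 1.01, SE 0.28, adjusted p = 0.0690), which stayed below 1.40 CPM. Of 20 tested genes of other fatty acid synthesis 6 had one, led by the acyltransferase gene Gpam (log2 fold change 0.48, SE 0.13, adjusted p = 0.0580) and the elongase gene Elovl1 (log2 fold change -0.26, SE 0.07, adjusted p = 0.0610). In TLR3-KO, Gpam rose to 11.3 ± 2.79 CPM in injured libraries, against 5.73 ± 1.17 CPM in controls (SD, n = 4 each), at 0.92 (SE 0.18, adjusted p = 0.0366), as 0.578% of all genes rose. Against control 4 alone this was 1.002 (SE 0.28, adjusted p = 0.113). In WT it averaged 8.96 ± 0.979 CPM in injured libraries and 8.06 ± 0.902 CPM in controls (log2 fold change 0.04, SE 0.18, adjusted p = 0.947).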

How the data were processed

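RNA of lavage macrophages was made into TruSeq mRNA libraries and sequenced as pairs of 50-base reads, per the labels' protocols. FastQC 0.11.3, TopHat2 2.0.13, Bowtie2 2.2.1, Cufflinks and Cuffdiff 2.1.1 are named with build mm10 in the submitters' processing notes. The authors deposited unnormalized read counts per gene symbol, made with HTSeq according to the table's name; its version, annotation and strand setting are not given in the sources used here. All 16 columns matched labels, 4 per group.

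filterByExpr, at a minimum count of 10, passed 12455 genes and dropped 10704. TMM factors spanned 0.896 to 1.07. The model, in edgeR 4.0.16 under R 4.3.3, was quasi-likelihood with robust prior degrees of freedom, 1 coefficient per group and all 4 groups in the fit. The biological coefficient of variation came to 0.238. Pneumonia was tested within each genotype, averaged over both, and for a difference between them; genotypes were also compared within controls and within injured libraries. Benjamini-Hochberg adjustment covered 12455 genes at a threshold of 0.05. CPM in the text uses library totals; branch means use TMM-scaled log2 CPM with a prior count of 2. Intervals are the log2 fold change ± 1.96 SE (95%). The fit was tested on simulated data. No libraries of a group were copies: pairwise chi-square values per degree of freedom ran from 8.04 to 302.8.

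Members and lists were chosen with earlier results of these data known. All members are named; values per library are given for those called anywhere, those with the lowest p-values, the regulators, Stard4, Mylip, Nsdhl and Ebp, and from each neighbouring list the called genes and the pair with the lowest averaged p. Same-numbered libraries were compared by the correlation of their deviations from group means: only the controls of the genotypes paired in every number. Gene positions and exon lengths came from GENCODE M21 (mm10), and promoter windows from RefSeq (GRCm38.p6). Alternatives were RLE scaling, DESeq2 1.42.0, limma voom 3.58.1, other filters, a replicate block, subsets of controls and leaving out each library.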

Additional observations from a re-analysis of the deposited data

Results flagged for a closer look

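In 140 groups of 4 libraries, 1 library stood apart from the other 3 in 10, where the gap to the nearest library took up most of the group's range, beyond Dixon's 95% limit. Chance flags about 1 in 20 groups. WT injured 1 was low in 4 of them: Srebf2 with 150.1 CPM there and 214 to 222 CPM in the other WT injured libraries (ratio 0.881), Fasn with 70.6 and 161 to 166 CPM (0.949), Scd2 with 43.0 and 108 to 114 CPM (0.922), and the mean of the fatty acid genes with 4.13 and 5.05 to 5.09 log2 CPM (0.952). WT control 3 was high in 3: Fdft1 with 257 CPM and 214 to 215 CPM in the other WT controls (0.96), Nsdhl with 55.2 and 39.4 to 41.9 CPM (0.839), and the mean of the sterol enzymes with 7.31 and 6.96 to 6.99 log2 CPM (0.898). The other 3 were Cyp51, low in TLR3-KO injured 1 at 405 CPM with 436 to 438 CPM in the others (0.945), Sc5d, high in TLR3-KO injured 4 at 146 CPM with 132 to 134 CPM (0.848), and Scap, high in WT injured 4 at 88.3 CPM with 63.8 to 67.3 CPM (0.857).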

How the results depend on the processing

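The 17 members called in the averaged comparison numbered 16 to 22 under every alternative, apart from TLR3-KO control 4 as the only TLR3-KO control (7 called) and leaving out 1 library (10 to 17). In WT, where 0 were called, RLE scaling gave 6, DESeq2 13 and controls 1 and 2 only 15, and leaving out 1 library 0 to 6. In TLR3-KO, where 2 were called, DESeq2 gave 8, controls 3 and 4 only 16, controls 1 and 2 only 1, and no filter on low counts, the replicate block, TLR3-KO control 4 alone and a fit of the 2 groups compared 0 each; leaving out 1 library gave 0 to 7. Between control genotypes, where 2 were called, DESeq2 gave 8, the replicate block 1, controls 1 and 2 only 1, controls 3 and 4 only 1, and TLR3-KO control 4 alone and a fit of the 2 groups compared 0 each; leaving out 1 library gave 1 to 7. Between injured genotypes, where 1 was called, the replicate block gave 0 and leaving out 1 library 0 to 1. The difference of the responses gave 0 under every alternative. For most of these alternatives the share of all genes called in the same fit is not given here. It reached 32.1% in TLR3-KO with controls 3 and 4 only. The sterol enzyme mean in TLR3-KO, -0.40, was -0.22 with controls 1 and 2 only, -0.58 with controls 3 and 4 only and -0.70 against TLR3-KO control 4 alone, the last of these and the fit without robust prior degrees of freedom being chosen after seeing the data. The cause of these shifts was not tested. Single-gene results were followed only for members called or with the lowest p-values, which seldom change sign. Among these, 677 kept their direction and their side of the threshold, 127 fell short of it, 28 newly passed it and 0 reversed. Over all 32 members signs did change: with controls 1 and 2 only, 25 kept theirs in the averaged comparison and 26 in TLR3-KO. With controls 3 and 4 only, 27 of 32 kept theirs in WT.

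Same-numbered libraries had a clear positive correlation in every number only between the control genotypes (0.478 to 0.602). Elsewhere the correlations were -0.068 to 0.341 in TLR3-KO, -0.294 to -0.121 in WT and -0.341 to 0.077 between injured genotypes, where samples share only a number. The block left 16 calls in the averaged comparison. The fewest counts were behind Fads2, with 7 to 95 per library, and what depth limits for single members was not tested.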
